A study of Rattus norvegicus with 138 samples.

Results

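The neuropeptide Y (NPY) and galanin systems were described here by 6 of the 32883 genes measured: the peptide genes Npy and Gal, the NPY receptor genes Npy1r, Npy2r and Npy5r, and the galanin receptor gene Galr1. They were selected by gene symbol, with earlier results of these data known. RNA was sequenced from punches of the nucleus of the solitary tract (NTS), the caudal ventrolateral medulla (CVLM) and the rostral ventrolateral medulla (RVLM) of 46 female rats, of which 18 were normotensive Wistar-Kyoto rats (WKY/NHsd) and 28 were spontaneously hypertensive rats (SHR/NHsd). The rats were untreated, were housed singly and were taken at 5 ages, namely 8 wk (5 WKY rats and 5 SHRs), 10 wk (4 and 5), 12 wk (3 and 6), 16 wk (3 and 6) and 24 wk (3 and 6). Each rat gave 1 library per region, made from its punches of both sides, so that each of the 3 regions had 46 libraries, and every group is of 1 sex and of 1 commercial colony per strain. A punch holds every cell type of its area, and fewer cells of a type and less RNA per cell cannot be told apart in such data.

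NPY is a peptide transmitter that many medullary catecholamine neurons release together with noradrenaline or adrenaline, and galanin is likewise found in part of these neurons. Both peptides act on receptors coupled to inhibitory G proteins. The Y1 receptor (Npy1r) and the Y5 receptor (Npy5r) act largely on the cells that receive the peptide, whereas the Y2 receptor (Npy2r) is known best as a presynaptic receptor that reduces further release. In the NTS, where baroreceptor afferents end, both peptides are known to alter the control of blood pressure, and the CVLM and the RVLM carry this control on to the sympathetic outflow.

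The promoter sequences of 3 members are shown because the results below turn on them: Npy and Gal as the peptide genes, and Npy2r for its difference between the strains. Each is the run of 150 bases before the transcript start used in the RefSeq promoter set of the assembly GRCr8, written 5′ to 3′ on the strand of the gene. The data were mapped to another build (rn6), so that these positions apply to GRCr8 only. Capitals mark a TATA box core (TATAAA), a GC box (GGGCGG) or a cyclic-AMP response element half-site (TGACG), each searched on both strands.
Gal, chr1:210084573-210084722, minus strand: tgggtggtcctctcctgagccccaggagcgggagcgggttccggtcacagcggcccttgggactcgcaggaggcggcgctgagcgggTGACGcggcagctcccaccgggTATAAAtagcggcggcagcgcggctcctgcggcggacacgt
Npy, chr4:80211961-80212110, plus strand: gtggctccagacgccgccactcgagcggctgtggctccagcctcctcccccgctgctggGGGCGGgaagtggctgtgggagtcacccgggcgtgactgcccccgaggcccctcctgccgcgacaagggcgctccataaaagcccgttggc
Npy2r, chr2:170203101-170203250, minus strand: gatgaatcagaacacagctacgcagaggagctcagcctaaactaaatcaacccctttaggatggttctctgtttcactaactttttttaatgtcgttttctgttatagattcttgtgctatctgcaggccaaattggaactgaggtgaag

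The window of Gal held TATAAA at 41 bases and TGACG at 63 bases before the start, and that of Npy held GGGCGG at 91 bases before it. The window of Npy2r held none of the 3 motifs, and it lies inside the bounds that RefSeq gives for the gene, so that it is not the sequence upstream of the outermost listed start. Of 33469 rat promoters of the same length, 8.00% held TATAAA, 26.0% GGGCGG and 13.4% TGACG. Such a match is a description of the letters and not of a bound site. In the same annotation Npy1r and Npy5r are neighbours on chromosome 16 with 0 genes between them and start in opposite directions.

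Library totals lay between 5904570 and 17889406 gene counts (median 10143018) with the highest median at 10 wk. Catecholamine markers were present in every region: the median of Th, which codes for tyrosine hydroxylase, was 134 CPM (counts per 1000000 of the library's effective total) for NTS, 138.2 for CVLM and 53.2 for RVLM punches. Pnmt, which marks adrenergic neurons, had medians of 3.60, 41.8 and 19.6 CPM in the same order. The RVLM punches also held motor neuron transcripts: 6 of 6 motor neuron markers tested were higher there than in the CVLM, and Chat had a median of 243 CPM against 18.5 CPM. Library names end in the number 1 or 2, whose meaning is not given. It was 2 for all 9 rats of 10 wk and for 5 of the other rats (3 WKY rats of 8 wk and 1 SHR each of 12 and 24 wk), so that at 10 wk this number and the age cannot be told apart.

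The counts of Npy were shared with a second row of the tables. RSEM, with which the authors counted, divides a read that maps to several genes between them, and the Npy row held a count that was not whole in 96 libraries, while the other 5 members had whole counts throughout. The count of Npy added to that of a gene listed as LOC100912228 was whole, within 0.02, in every library, and no other gene gave whole sums with Npy in more than 12.5% of libraries. LOC100912228 was chosen for this sum after its values were seen, and it has no entry in the RefSeq tables used here. The Npy row held a median of 2.90% of the summed count in NTS libraries and 2.45% in CVLM libraries, and it was listed at 0 in 4, 2 and 33 of the 46 libraries of the NTS, CVLM and RVLM. Values of the single row are therefore uncertain. The sum of both rows is given beside it and is called the summed Npy count for short, although whether the reads of the LOC100912228 row stem from Npy transcripts was not tested.

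**Figure D1:**
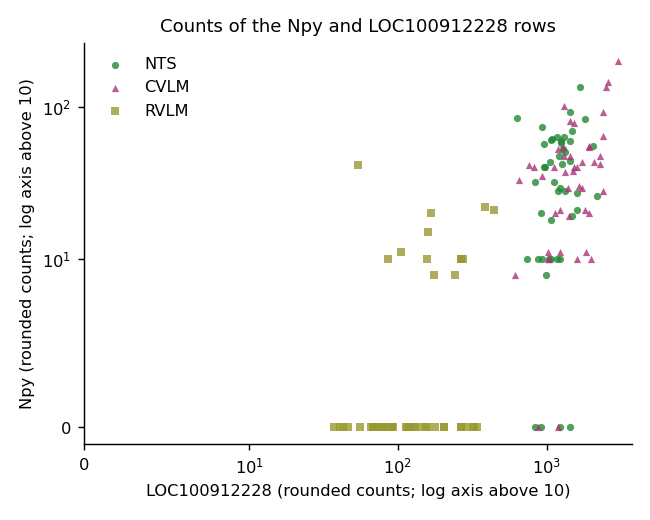
Rounded counts of the Npy row (vertical axis) against those of the LOC100912228 row (horizontal axis), both on log axes that are linear under 10, with 1 point per library and 46 libraries per region. The Npy row lies far under the other row in nearly every library, and at 0 in 33 of the 46 RVLM libraries.

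The summed Npy count was abundant in the NTS and CVLM and low in the RVLM. Over the 46 rats it ran from 67.0 to 179 CPM (median 113 CPM) in the NTS and from 45.2 to 240.1 CPM (median 150.1 CPM) in the CVLM. RVLM libraries had 2.67 to 62.5 CPM (median 12.3 CPM). The range of the RVLM did not reach the lowest NTS library. In a joint fit with the rat as a block, the log2 difference was 3.06 ± 0.13 (SE, n = 46 rats) for the NTS against the RVLM and 3.47 ± 0.13 for the CVLM against the RVLM (edgeR adjusted p = 3.74e-35 and 7.56e-38). The CVLM also exceeded the NTS, by a smaller step: the log2 difference of the NTS against the CVLM was -0.41 ± 0.11 (adjusted p = 0.000537), and 38 of 46 rats had the higher value in the CVLM.

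Gal, the galanin precursor, had the same division into 2 high regions and 1 low region. Gal ran from 42.7 to 169 CPM (median 113 CPM) in the NTS and from 11.4 to 189.7 CPM (median 113 CPM) in the CVLM. RVLM libraries had 1.69 to 26.1 CPM (median 7.59 CPM). In each of the 46 rats the RVLM held the lowest of the 3 values. The fitted level was 13.3-fold higher in the NTS and 12.9-fold higher in the CVLM than in the RVLM (log2 differences 3.73 ± 0.19 and 3.69 ± 0.19). For the NTS against the CVLM the log2 difference was 0.04 ± 0.15 (adjusted p = 0.844), with a 95% interval from -0.27 to 0.34, and 23 of 46 rats had the higher value in either region.

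Of the NPY receptors, Npy1r fell in steps from the NTS to the CVLM to the RVLM. Its medians were 12.8, 5.88 and 3.70 CPM, and its log2 difference was 1.11 ± 0.07 for the NTS against the CVLM, 1.88 ± 0.08 for the NTS against the RVLM and 0.77 ± 0.09 for the CVLM against the RVLM. The order held in most rats, with the NTS above the CVLM in 45 of 46 and the CVLM above the RVLM in 40 of 46. Npy2r differed from this order, with its highest level in the CVLM. Its medians over the same regions were 4.34, 5.56 and 0.996 CPM, the log2 difference of the NTS against the CVLM was -0.27 ± 0.08 (adjusted p = 0.00181), and both stood above the RVLM in 46 of 46 rats.

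Npy5r was the member with the most even levels. Its medians were 6.83, 5.49 and 5.43 CPM, and the NTS exceeded the CVLM by 0.38 ± 0.08 and the RVLM by 0.28 ± 0.08 on the log2 scale (adjusted p = 1.4e-05 and 0.000666). For the CVLM against the RVLM the log2 difference was -0.10 ± 0.08 (adjusted p = 0.319), with a 95% interval from -0.26 to 0.06. Thus the neighbouring genes Npy1r and Npy5r had unlike regional levels, the former with a 3.67-fold and the latter with a 1.22-fold difference between the NTS and the RVLM. Galr1, which codes for the first galanin receptor, was graded like Npy1r, with medians of 5.76, 4.50 and 1.58 CPM. Its log2 difference was 0.40 ± 0.08 for the NTS against the CVLM and 1.53 ± 0.11 for the CVLM against the RVLM.

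In all, 15 of the 18 comparisons of a member between a pair of regions were called at an adjusted p under 0.05, 14 with the higher level in the region nearer to the start of the order NTS, CVLM, RVLM. This count has to be read against the genes at large, of which 66.3% differed between the NTS and the CVLM (34.3% higher and 32% lower in the NTS), 73.1% between the NTS and the RVLM (36.1% and 37.1%) and 54.2% between the CVLM and the RVLM (25.8% higher and 28.4% lower in the CVLM). The median log2 difference of the 6 members was 2.11 for the NTS against the RVLM and 2.05 for the CVLM against the RVLM, and over all 14043 genes tested it was -0.0045 and -0.0043. The 18 comparisons include the single Npy row, whose fitted log2 difference from the RVLM rests on libraries listed at 0 and is no bound. CPM values are not divided by transcript length, so that levels were compared within a gene and not between genes.

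**Figure D2:**
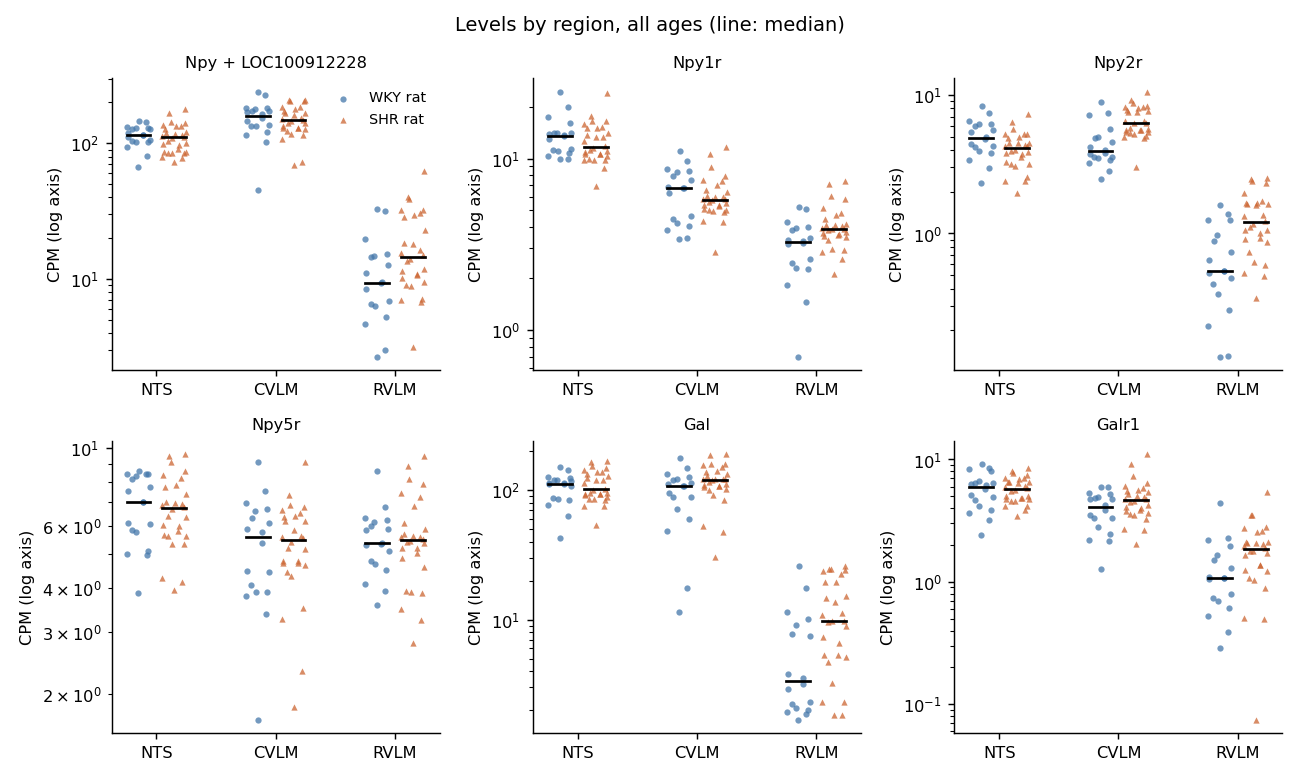
Normalized counts (CPM, log axes that differ between panels) of the summed Npy count, Gal and the 4 receptor genes in the NTS, CVLM and RVLM, with 1 point per library and a line at the median of each strain. The summed Npy count and Gal lie about an order of magnitude lower in the RVLM (medians of both strains 12.3 and 7.59 CPM) than in the other regions, whereas the median of Npy5r lies between 5.43 and 6.83 CPM in all of them.

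Catecholamine markers had a similar regional division. Of 10 noradrenergic and adrenergic markers tested, 9 were higher in the CVLM than in the RVLM and 1 was lower. Their summed level was 423 to 922 CPM over the NTS libraries, 460 to 904 CPM over those of the CVLM and 224 to 622 CPM over those of the RVLM, with Hand2 at a median of 0 in all regions. The motor neuron markers ran the other way, with sums from 65.7 to 320 CPM in the CVLM and from 888 to 3075 CPM in the RVLM and with Mnx1 at a median of 0 throughout. The part of either in the levels of the members was not tested. The 3 lowest CVLM libraries in Gal differed in these markers. In that of WKY rat 4 of 10 wk, the summed Npy count (45.2 CPM), Th (53.1 CPM), Dbh (24.4 CPM) and Pnmt (12.0 CPM) were the lowest of all 46 libraries, Gal was 17.7 CPM, and Tph2, the neuronal enzyme of serotonin synthesis, was the highest at 122 CPM. In that of WKY rat 3 of 12 wk, Gal was the lowest at 11.4 CPM, with 3 libraries below it in Th. In that of SHR 2 of 8 wk, Gal was 30.6 CPM, while Th (145 CPM), Pnmt (56.7 CPM) and Tph2 (7.70 CPM) had 28 or more libraries below them. Dbh (66.7 CPM) was in the lower part of the range in that library, with 9 libraries below it.

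Between the strains, the clearest difference among the members was in Npy2r, and its size depended on the region. In the CVLM at 8 wk, Npy2r measured 4.23, 2.49, 3.56, 3.596 and 3.40 CPM in the 5 WKY rats and 10.6, 8.27, 8.22, 7.72 and 5.80 CPM in the 5 SHRs. All SHRs lay above all WKY rats. The log2 fold change (SHR against WKY) was 1.23 ± 0.23 (SE, adjusted p = 0.000363), a 2.34-fold higher level, in a comparison in which 7.39% of all genes were called. This was the only one of 85 comparisons of a member at a single age that was called. Over all genes, 3.69% of such comparisons were called. An unadjusted p under 0.05 was found for 10 of the 85. The number of all genes with such a p ran from 744 of 13411 (RVLM, 16 wk) to 3681 of 13411 (RVLM, 8 wk) over the regions and ages. The share among the members lies within this range, so that the count does not set them apart from the genes at large. From the youngest to the oldest rats, 5.44%, 4.28%, 3.2%, 1.65% and 2.41% of genes were called in the NTS, and 2.36% and 2.24% in the CVLM at 12 and 16 wk. RVLM punches had 9.45% at 8 wk, 1.69% at 12 wk and 1.66% at 16 wk.

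At 10 wk in the CVLM, Npy2r measured 4.03, 3.22, 3.74 and 3.84 CPM in the WKY rats and 6.50, 4.95, 7.54, 5.32 and 5.70 CPM in the SHRs. At 24 wk it measured 4.94, 2.83 and 4.88 CPM in the WKY rats and 6.46, 5.02, 9.27, 8.21, 5.40 and 6.31 CPM in the SHRs, so that the strains did not overlap at either age. The log2 fold changes of 0.69 ± 0.24 and 0.68 ± 0.27 did not pass the correction over all genes (adjusted p = 0.147 and 0.120, with 3.12% and 6.05% of all genes called). The share of all genes without overlap was not computed, so that a lack of overlap is a description only, wherever it is given for a member. At 12 and 16 wk the strains overlapped. The WKY rats then measured 4.56 to 7.44 CPM and 3.499 to 8.90 CPM and the SHRs 3.01 to 8.80 CPM and 4.87 to 8.00 CPM, with log2 fold changes of 0.10 ± 0.26 and -0.12 ± 0.25.

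Averaged over the 5 ages, Npy2r in the CVLM was 1.43-fold higher in SHRs (log2 fold change 0.52 ± 0.11, 95% interval 0.29 to 0.74, adjusted p = 0.000798). In the RVLM, where Npy2r was scarce, the corresponding value was 0.91 ± 0.24 (adjusted p = 0.00871), a 1.87-fold higher level. The RVLM difference was clearest at 10 wk, at which Npy2r measured 0.533, 0.434, 0.476 and 0.641 CPM in the WKY rats and 1.18, 1.06, 1.64, 0.730 and 2.47 CPM in the SHRs. The strains did not overlap there, with a log2 fold change of 1.42 ± 0.51 (adjusted p = 0.215; 2.29% of all genes called). Of the other ages in the RVLM, 12 wk had a log2 fold change of -0.08 ± 0.55 and the rest had 0.84 to 1.20. These libraries held 1 to 38 reads of Npy2r each. A gene was tested in a region only if its largest value there passed a filter on low values. For Npy2r in the RVLM this value was of an SHR (2.51 CPM, against at most 1.60 CPM in WKY rats). Whether Npy2r would have entered the RVLM test by its WKY values alone was not tested.

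In the NTS the mean of Npy2r was lower in SHRs at all 5 ages. Over all rats it was 5.05 ± 1.57 CPM (SD, n = 18) in WKY rats and 4.16 ± 1.22 CPM (n = 28) in SHRs, and the log2 fold change averaged over ages was -0.32 ± 0.13 (adjusted p = 0.126). At 12 wk, where the gap was widest, the WKY rats measured 4.79, 8.39 and 7.48 CPM and the SHRs from 2.38 to 5.27 CPM with a median of 3.90 CPM, a log2 fold change of -0.78 ± 0.30 (adjusted p = 0.196). The dependence on region was itself tested. The log2 fold change was lower in the NTS than in the CVLM by 0.84 ± 0.15 (adjusted p = 0.000417) and lower in the NTS than in the RVLM by 1.22 ± 0.25 (adjusted p = 0.00103), while the CVLM and the RVLM differed by -0.37 ± 0.25 (adjusted p = 1). Without the rats of replicate number 2, the NTS differed from the CVLM by -0.69 (adjusted p = 0.112), and this call was lost. Of 18 such comparisons of members these 2 were called, against 0.449% and 1.94% of all genes for the same pairs of regions and 0.335% for the CVLM against the RVLM.

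The calls of Npy2r were kept with the number as a term and lost with libraries of number 1 alone. Fewer rats remain in the latter, and in the RVLM the log2 fold change itself was also smaller. In the fit of all libraries the log2 fold changes were 1.23 ± 0.23 (CVLM, 8 wk), 0.52 ± 0.11 (CVLM, average) and 0.91 ± 0.24 (RVLM, average). With the number as a term in the fit, the log2 fold changes were 1.28 (CVLM, 8 wk; adjusted p = 0.00217), 0.52 (CVLM, average; adjusted p = 0.000825) and 0.90 (RVLM, average; adjusted p = 0.00811). With libraries of number 1 alone, which leaves 2 WKY rats at 8 wk and none at 10 wk, they were 1.27 ± 0.37 (adjusted p = 0.115), 0.47 ± 0.16 (adjusted p = 0.0736) and 0.49 ± 0.26 (adjusted p = 0.383), and none was called. In the RVLM at 8 wk, the log2 fold change was 1.14 ± 0.52 with all libraries and 0.11 ± 0.56 with those of number 1 alone. The edgeR adjusted p was 0.145 and 0.976. There, WKY rat 1, of number 1, measured 1.60 CPM, WKY rat 2, also of number 1, 0.537 CPM, and the 3 WKY rats of number 2 from 0.130 to 0.279 CPM. No SHR of 8 wk is of number 2, so that strain and number are partly tied at this age. Without the 2 CVLM libraries of 8 wk whose title and age label conflict, the value in the CVLM at 8 wk was 1.32 (adjusted p = 0.000842). Blood cell markers were lower in SHRs, with 4 of 4 tested called in the CVLM and in the RVLM and 2 of 4 in the NTS. Their sums in CVLM punches were 214 to 1131 CPM in WKY rats and 118 to 588 CPM in SHRs. The corresponding ranges were 186 to 1303 and 121 to 698 CPM in RVLM punches, and 206 to 1158 and 99.7 to 848 CPM in NTS punches. Hba-a3 and Slc4a1 had a median of 0 in SHRs of each region, and the part of blood cells in the Npy2r difference was not tested.

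**Figure D3:**
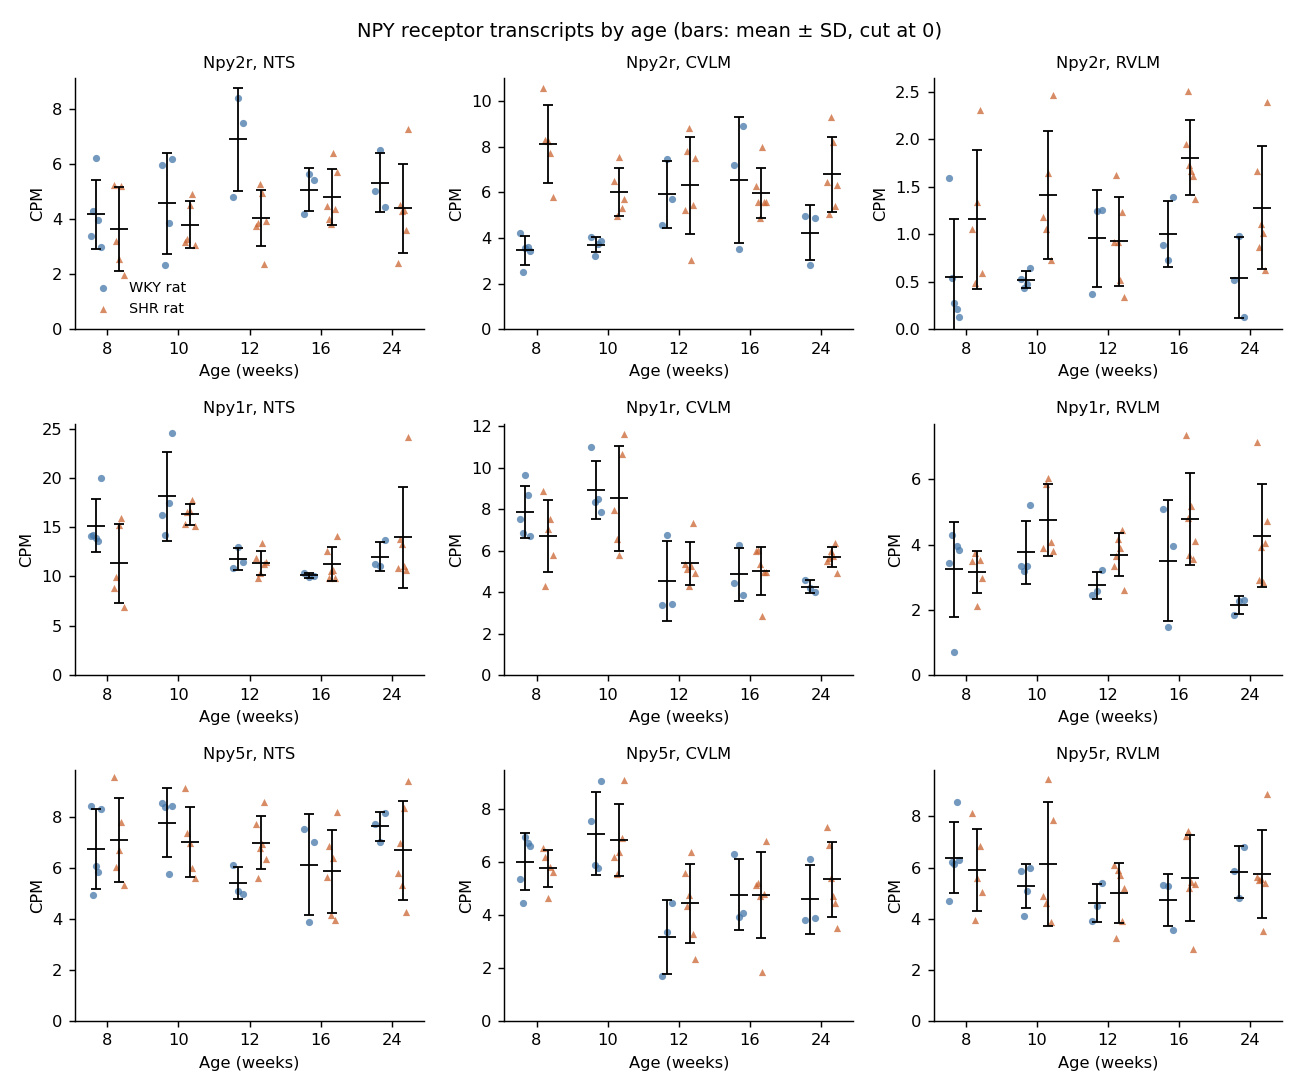
Normalized counts (CPM) of Npy2r, Npy1r and Npy5r by age in weeks in the NTS, CVLM and RVLM, with 1 point per rat and the mean ± SD of each strain, the lower bars being cut at 0. Npy2r of SHRs lies above that of WKY rats without overlap at 8, 10 and 24 wk in the CVLM and at 10 wk in the RVLM, and its means lie below those of WKY rats in the NTS at all 5 ages.

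For Npy1r, the strain difference came nearest to the threshold in the RVLM. Averaged over ages the log2 fold change was 0.43 ± 0.15 (adjusted p = 0.0530; DESeq2 gave 0.42 with an adjusted p of 0.0311), and it was called when any of 12 single rats was left out, at the lowest adjusted p of 0.0231 without WKY rat 1 of 16 wk. It was not called in 34 of the 46 fits without 1 rat, with adjusted p up to 0.123. At 24 wk the 3 WKY rats measured 1.83, 2.28 and 2.31 CPM and the 6 SHRs 7.14, 2.92, 3.94, 2.85, 4.05 and 4.72 CPM. These groups did not overlap, yet the log2 fold change of 0.98 ± 0.36 did not pass the correction (adjusted p = 0.179; 2.22% of all genes called). In the CVLM at 24 wk Npy1r was 4.60, 4.18 and 4.02 CPM in WKY rats and 4.91 to 6.36 CPM in SHRs, again without overlap, with a log2 fold change of 0.41 ± 0.24 (adjusted p = 0.322). Averaged over ages, the log2 fold change of Npy1r was -0.05 ± 0.09 in the NTS and 0.08 ± 0.10 in the CVLM.

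Npy5r, the second receptor on the receiving cell, had log2 fold changes between the strains of 0.01 ± 0.10, 0.11 ± 0.13 and 0.09 ± 0.12 over the 3 regions in order (adjusted p = 0.978, 0.690 and 0.741). At single ages they ran from -0.19 in the NTS at 24 wk to 0.48 in the CVLM at 12 wk. Its spread between rats of a group was of the order of these differences, as in the CVLM at 12 wk, where the WKY rats measured 1.70, 3.37 and 4.44 CPM and the SHRs 2.32 to 6.39 CPM. The 95% intervals of the differences averaged over ages were -0.19 to 0.21 for the NTS, -0.13 to 0.36 for the CVLM and -0.15 to 0.33 for the RVLM.

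The summed Npy count did not pass the test for strain in any region. The log2 fold change averaged over ages was -0.06 ± 0.09 for the NTS, -0.05 ± 0.13 for the CVLM and 0.59 ± 0.25 for the RVLM (adjusted p = 0.822, 0.885 and 0.139). In the RVLM the SHR mean was above the WKY mean at all 5 ages, from 10.4 against 5.66 CPM at 10 wk to 28.0 against 22.2 CPM at 16 wk, but the rats of both strains overlapped at every age. At 12 wk, for example, the WKY rats measured 6.86, 11.02 and 32.8 CPM and the SHRs 62.5, 18.5, 14.1, 10.8, 32.1 and 18.0 CPM. Without the third of these WKY rats the difference averaged over ages was called (adjusted p = 0.0372). It was not called in 45 of the 46 fits without 1 rat, with adjusted p up to 0.253. For the single Npy row the log2 fold change averaged over ages was -0.18 ± 0.41 in the NTS and -0.36 ± 0.31 in the CVLM (adjusted p = 0.896 and 0.579), with larger errors than those of the sum.

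Gal showed its largest strain values in the RVLM. At 10 wk Gal measured 1.86, 2.31, 3.81 and 1.996 CPM in the 4 WKY rats and 6.57, 7.40, 9.86, 5.33 and 9.58 CPM in the 5 SHRs. Every SHR exceeded every WKY rat, and the log2 fold change was 1.63 ± 0.76, with an adjusted p of 0.564 in the fit over all ages. With the 10-wk groups fitted alone, the log2 fold change was 1.63 ± 0.27 and the adjusted p was 0.00318. The fit over all ages uses 1 estimate of the spread, and Gal varied more within groups of other ages, as at 16 wk, where the WKY rats measured 2.22, 7.75 and 26.1 CPM. Averaged over ages the log2 fold change of Gal was 0.89 ± 0.34 in the RVLM (adjusted p = 0.0926), 0.27 ± 0.21 in the CVLM (adjusted p = 0.527) and 0.06 ± 0.12 in the NTS (adjusted p = 0.864). The RVLM value was called without WKY rat 3 of 16 wk (adjusted p = 0.0242), WKY rat 2 of 8 wk (adjusted p = 0.0356) or WKY rat 2 of 24 wk (adjusted p = 0.0428), which held 26.1, 11.5 and 17.6 CPM of Gal. It was not called in 43 of the 46 fits without 1 rat, with adjusted p up to 0.171.

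Galr1 was also higher on average in SHRs in the RVLM at all 5 ages, but not past the threshold. The mean over all rats was 1.92 ± 1.08 CPM (SD, n = 28) in SHRs and 1.32 ± 0.978 CPM (n = 18) in WKY rats, and the log2 fold change averaged over ages was 0.55 ± 0.26 (adjusted p = 0.212). In the CVLM it was 0.31 ± 0.16 (adjusted p = 0.257), with the widest gap at 8 wk, where the WKY rats measured 5.36, 5.18, 2.21, 3.51 and 3.89 CPM and the SHRs 5.22, 6.47, 5.52, 5.83 and 9.17 CPM. The 3 lowest of these WKY rats were those of number 2. Without WKY rat 2 of 12 wk the CVLM difference averaged over ages was called (adjusted p = 0.0257). It was not called in 45 of the 46 fits without 1 rat, with adjusted p up to 0.477. In the NTS the log2 fold change of Galr1 was -0.01 ± 0.10.

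**Figure D4:**
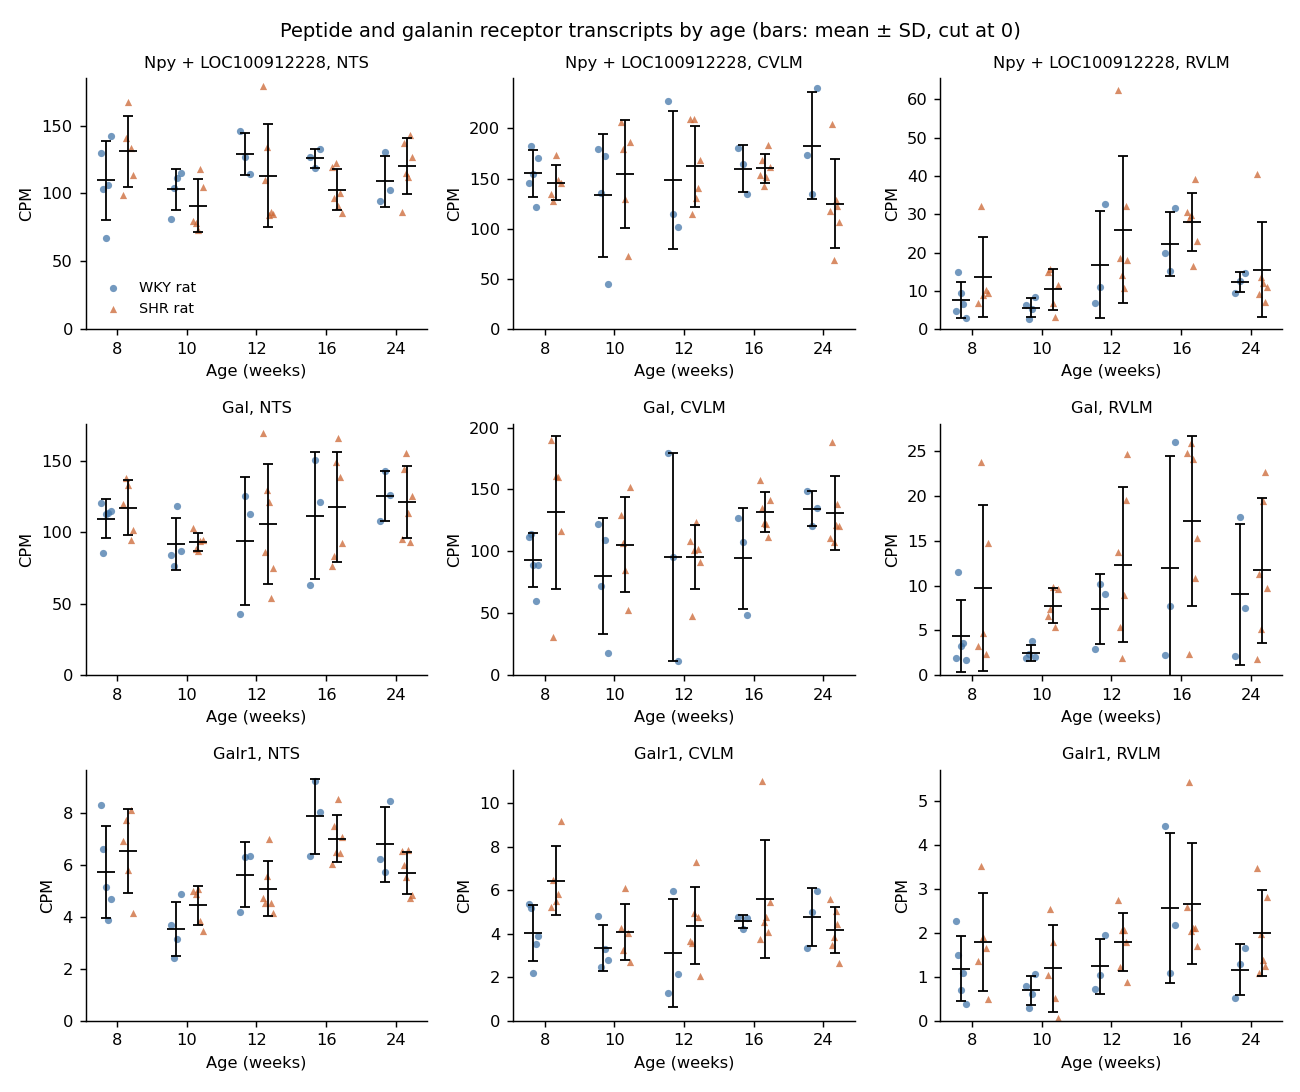
Normalized counts (CPM) of the summed Npy count, Gal and Galr1 by age in weeks in the NTS, CVLM and RVLM, with 1 point per rat and the mean ± SD of each strain, the lower bars being cut at 0. In the RVLM the SHR means lie above the WKY means at all 5 ages in each of the 3 rows, and the strains are apart without overlap only for Gal at 10 wk.

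Averaged over ages, 2 of 17 comparisons of a member between the strains were called, both of Npy2r and both higher in SHRs, against 5.52% of all genes called higher in SHRs in the CVLM, 5.79% in the RVLM and 5.51% in the NTS. Without a direction, 11% of all genes were called for the NTS, 11.7% for the CVLM and 10.8% for the RVLM. The single Npy row did not pass the filter on low values in the RVLM, which left 17 of 18 combinations of member and region. The median log2 fold change of the members was -0.03 for the NTS, 0.19 for the CVLM and 0.55 for the RVLM, beside 0.01 over all genes in each region. Markers of other neurons also had medians above 0 in the RVLM. For the serotonergic list, of which 1 of 3 tested was called higher, the median was 0.58, its sums were 6.58 to 27.4 CPM in WKY rats and 6.79 to 37.9 CPM in SHRs, and Fev and Ucn3 were at a median of 0. For the GABA and glycine list, with 0 of 7 called, the median was 0.29 and the sums were 423 to 1191 CPM and 608 to 1197 CPM, with Dlx1 at a median of 0. Their part in the values of the members was not tested. A strain difference that varied with age was called by edgeR for 0 of the 17, against 0.00739% of comparisons over all genes (NTS 0.0145%, CVLM 0% and RVLM 0.00746%), and for 1 the unadjusted p was under 0.05. This was Npy2r in the CVLM (quasi-likelihood test, adjusted p = 0.310), where 1533 of all 13408 genes had an unadjusted p under 0.05.

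**Figure D5:**
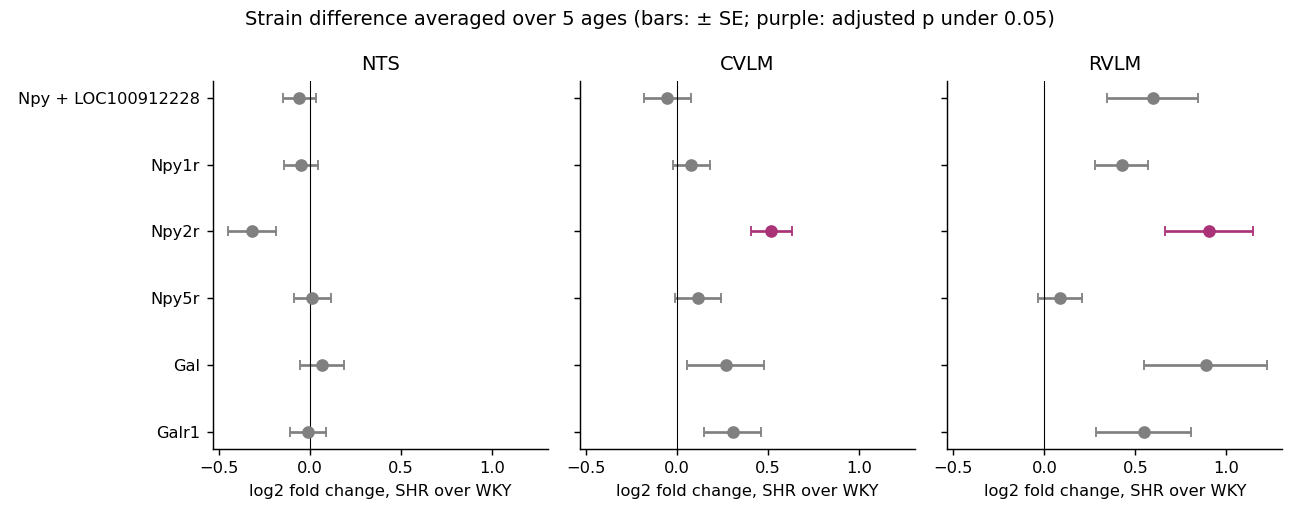
Log2 fold change (SHR against WKY, averaged over the 5 ages) of the summed Npy count and 5 members in the NTS, CVLM and RVLM, with bars of ± 1 SE and with the called values in purple. Npy2r is called in the CVLM (0.52) and the RVLM (0.91), and its point lies under 0 in the NTS (-0.32).

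With age, levels changed within a strain in 7 of 34 comparisons of a member, against 15.6% of comparisons over all genes (12.5% in WKY rats and 19.8% in SHRs for the NTS, 21.2% and 19.7% for the CVLM). Of these, 4 were in the CVLM: Npy1r in WKY rats and in SHRs (adjusted p = 0.00161 and 0.0192), Npy2r in WKY rats (adjusted p = 0.0256) and Npy5r in WKY rats (adjusted p = 0.0485). The other 3 were in the NTS: Npy1r in WKY rats (adjusted p = 0.0406) and Galr1 in WKY rats and SHRs (adjusted p = 0.0121 and 0.0499). None of the 5 members tested changed with age in the RVLM past the threshold, where 6.64% of all genes were called in WKY rats and 14.1% in SHRs.

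The members that changed with age had their highest or lowest group means at 8 or 10 wk. Npy1r in the CVLM measured 11.01, 8.35, 8.50 and 7.88 CPM in WKY rats of 10 wk and had a mean of 8.52 ± 2.54 CPM (SD, n = 5) in SHRs of that age, with means of 7.88 and 6.71 CPM at 8 wk, while the group means at 12, 16 and 24 wk were 4.27 to 5.68 CPM. In the NTS, Npy1r was likewise highest at 10 wk, with means of 18.1 CPM in WKY rats and 16.3 CPM in SHRs. Galr1 in the NTS ran the other way: its means were lowest at 10 wk, at 3.54 ± 1.03 CPM (n = 4) in WKY rats and 4.45 ± 0.743 CPM (n = 5) in SHRs, and highest at 16 wk, at 7.89 ± 1.44 CPM (n = 3) and 7.03 ± 0.906 CPM (n = 6). Npy2r in the CVLM of WKY rats had means of 3.45 and 3.71 CPM at 8 and 10 wk, 5.90 and 6.53 CPM at 12 and 16 wk and 4.21 CPM at 24 wk.

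All 10-wk libraries carry the number 2, and the 7 age changes were not separable from it. With the number as a term, 0 of 34 comparisons were called, and the adjusted p of these 7 ran from 0.213 to 0.890. With libraries of number 1 alone they ran from 0.629 to 0.947. Within the WKY rats of 8 wk, where both numbers occur, Galr1 was lower in all 3 rats of number 2 than in both rats of number 1 in each of the 3 regions, as in the NTS with 5.17, 3.89 and 4.68 CPM against 8.34 and 6.63 CPM. Npy5r was higher in all 3 rats of number 2 in the CVLM, at 6.95, 6.70 and 6.62 CPM against 5.36 and 4.46 CPM.

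Other genes of the 2 peptide families were scarce. Of 9 listed, among them the peptidase gene Dpp4, 7 have a row in the tables and 3 passed the filter in at least 1 region. Of these 3, Npy4r, the receptor for pancreatic polypeptide, had the largest strain difference. Its median in the CVLM was 0.221 CPM in WKY rats and 1.02 CPM in SHRs, with a log2 fold change averaged over ages of 1.80 ± 0.32 (adjusted p = 4.34e-05). CVLM libraries held 0 to 10 reads of Npy4r in WKY rats and 2 to 32 in SHRs. The filter keeps a gene by its largest value in a region, and the largest was of an SHR (3.04 CPM, against at most 0.905 CPM in WKY rats). Entry of Npy4r into this test therefore depended on the strain in which it was higher. In the NTS, where Npy4r was more abundant at a mean of 3.80 CPM, the log2 fold change was -0.06 ± 0.15, and the strain difference was lower in the NTS than in the CVLM by 1.88 ± 0.30 (adjusted p = 1.01e-05). In the RVLM Npy4r did not pass the filter, and its means were 0.155 CPM in WKY rats and 0.791 CPM in SHRs.

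Dpp4, a peptidase that shortens NPY and peptide YY, was lower in SHRs in the RVLM, the only region in which it passed the filter. Its largest value there was of a WKY rat (2.74 CPM, against at most 2.53 CPM in SHRs), and its median was 7 reads. In the RVLM its mean was 1.37 ± 0.673 CPM (SD, n = 18) in WKY rats and 0.679 ± 0.455 CPM (n = 28) in SHRs, with a log2 fold change of -0.92 ± 0.23 (adjusted p = 0.00535). It did not pass the filter elsewhere, with means of 1.19 and 0.436 CPM in the NTS and 1.16 and 0.630 CPM in the CVLM. Pyy, the gene for peptide YY, had a median of 1.56 CPM in the CVLM and of 0 in the NTS and RVLM. Its strain difference in the CVLM was 0.61 ± 0.27 (adjusted p = 0.165), and it changed with age there in WKY rats (adjusted p = 0.0258). Ppy, Galp, Spx and Galr3 had medians at or near 0, and Galr2 and Npy6r were not analysed here.

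Of 12 genes that process and release peptides, 11 were tested between the strains. Averaged over ages, 0 were called in the CVLM and 1 of 11 lower in SHRs in each of the NTS and RVLM, where 11% and 10.8% of all genes were called. The gene called in the RVLM was Chga (chromogranin A), with a log2 fold change of -0.21 ± 0.07 (adjusted p = 0.0264), and that in the NTS was Pcsk1, a prohormone convertase, with -0.27 ± 0.09 (adjusted p = 0.0308). At single ages 1 of 11 was called for each of NTS 8 wk, NTS 10 wk and CVLM 24 wk, and 0 at the others. Between the NTS and the RVLM the strain difference itself was called to differ for 3 of 11, against 1.94% of all genes: it was higher in the NTS for Chga (0.30 ± 0.05, adjusted p = 0.00021) and lower there for Pcsk1 (-0.39 ± 0.10, adjusted p = 0.0198) and Scg2, a secretogranin (-0.42 ± 0.11, adjusted p = 0.0148). The median log2 fold change of the 11 between the strains was 0.03, 0.02 and 0.04 over the regions in the order NTS, CVLM and RVLM. Among 19 tested genes of inhibitory G protein signalling, through which all of these receptors act, 1, 2 and 0 were called in the same order (11%, 11.7% and 10.8% of all genes), with medians of 0.02, -0.02 and 0.02. Of the noradrenergic and adrenergic markers, 1 of 10 was called lower in SHRs in the NTS (median log2 fold change -0.21), and 0 of 9 in the CVLM and in the RVLM, where their median log2 fold changes were 0.08 and 0.28.

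Genes whose levels followed those of the members from rat to rat were sought after the mean of each group of strain and age was subtracted, as a description over the 46 libraries of a region, which share tissue composition and depth. For the summed Npy count, Cartpt, which codes for the CART peptide, was among the 3 nearest genes in every region (r = 0.77, 0.86 and 0.81 in the NTS, CVLM and RVLM). Npff, the gene for neuropeptide FF, was nearest in the NTS (r = 0.81) and the third in the CVLM (r = 0.82). For Gal, the nearest genes in the NTS included Prlh, which codes for prolactin-releasing peptide (r = 0.79), and Th (r = 0.76). In the CVLM they were Pyy (r = 0.81), Penk, the enkephalin precursor (r = 0.77), and Fxyd6 (r = 0.76).

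In the RVLM, where Gal was low, its nearest genes were Cfd, Gfap and Pcolce with r of 0.63 to 0.64. The 3 nearest genes of Npy2r differed between the regions and were Scn3b, Kcnk2 and Gprasp2 in the NTS, Duox2, Cpne9 and Lzts1 in the CVLM, and Fstl4, Tmem106a and Fam163b in the RVLM, with r from 0.62 to 0.70. For Galr1 the highest r was 0.78 with Erich3 in the CVLM, 0.68 with Dok5 in the RVLM and 0.64 with Klhl1 in the NTS. For Npy1r it was 0.74 with Tmx1 in the NTS, 0.68 with Tmem255a in the CVLM and 0.76 with Hacd3 in the RVLM, and for Npy5r 0.70 with Fgf12, 0.68 with Usp16 and 0.70 with Olfm3 in the same order. The single Npy row had no gene above 0.59 in the NTS and 0.55 in the CVLM.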

How the data were processed

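The 3 deposited tables, 1 per region, hold expected counts per gene. The authors mapped reads to rn6 with STAR run by RSEM, and the deposited expected counts are not normalized. The methods also name an adjustment for batch with ComBat_seq, which gives whole counts, whereas 5.02% (NTS), 4.95% (CVLM) and 4.88% (RVLM) of values are not whole.

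Counts were rounded. Library factors were computed once by TMM over all libraries, and CPM refer to the resulting effective library size. Genes with a largest rlog value under 3.5 in a region were left out, after the authors' filter, which kept 13793, 13408 and 13411 genes in the NTS, CVLM and RVLM and 14043 in at least 1 region. Strain and age were tested by edgeR 4.0.16 quasi-likelihood F tests in 1 fit per region of 10 groups of strain and age. Regions were compared in 1 fit over all libraries with the rat as a block, with the dispersion estimated within glmQLFit and not by a separate step. P-values were adjusted by Benjamini-Hochberg over all genes of a comparison and called under 0.05. SE is the absolute log2 fold change divided by the square root of F, and 95% intervals are 1.96 SE on each side. Each library is of a separate rat within its region, so that p-values of the fits per region measure the spread between rats. In the joint fit the rat block takes out the general level of each rat. Its p-values therefore measure the spread of the regional differences within rats.

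At the depth of 5904570 to 17889406 counts, 200 strain changes of 1 log2 unit were simulated among 13793 genes, for the NTS only. Of these, 79.5% were recovered at 8 wk and 100% averaged over ages. The SE of members at single ages reached 0.78 for RVLM, 0.77 for CVLM and 0.99 for NTS punches. The median SE over all genes was 0.19 for NTS punches at 8 wk. The recovered share is therefore no measure for members with such errors, and a value that was not called does not show a lack of change. The members, the gene lists and the tests were chosen with earlier results of these data known. Beside the members, genes were named where they belong to the lists of family, peptide-processing or catecholamine genes and were called in a comparison in which a member was called, where they mark the tissue, or where they were among the 3 most similar genes by Pearson r of log2 CPM (prior count 2; mean of at least 1 CPM); other genes were chosen after their values were seen. Marker lists of other cell types are given where a result touches them. The alternatives were DESeq2 1.42.0, other size factors, no filter, the replicate number as a block, the name-ending number as a term, each rat left out, each age alone, a stricter threshold, limma 3.58.1 voom for regions and leaving out 2 CVLM libraries of conflicting age. Libraries of number 1 alone and the summed Npy count were added after the data were seen. Promoters come from RefSeq (GRCr8), in which 6 of 6 members were matched.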

Additional observations from a re-analysis of the deposited data

Results flagged for a closer look

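The strain difference of Npy2r differed between regions by the test of the difference itself: the log2 fold change (SHR against WKY, averaged over ages) in the NTS minus that in the CVLM was -0.84, and that in the NTS minus that in the RVLM was -1.22. Without the rats of replicate number 2 the former was -0.69 and was not called (adjusted p = 0.112).

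Single rats far from the rest of their group were looked for in 140 groups of 4 to 6 rats, and 15 had one. The rule was set to mark about 1 in 20 such groups by chance, a rate that was not measured here. For Npy1r in the NTS, WKY rat 5 of 8 wk had 19.9 CPM (others 13.5 to 14.2) and SHR 6 of 24 wk 24.1 CPM (others 10.7 to 13.8), and both libraries are of number 2. For Npy1r in the CVLM, SHR 5 of 12 wk had 7.35 CPM (others 4.31 to 5.35) and SHR 4 of 16 wk 2.85 CPM (others 4.98 to 6.03). For Npy1r in the RVLM, WKY rat 3 of 8 wk had 0.697 CPM (others 3.43 to 4.29), with the highest blood cell sum of that region at 1303 CPM, and WKY rat 4 of 10 wk 5.203 CPM (others 3.18 to 3.33). Npy2r in the RVLM was 1.60 CPM in WKY rat 1 of 8 wk (others 0.130 to 0.537), and Npy5r in the NTS was 5.75 CPM in WKY rat 3 of 10 wk (others 8.39 to 8.57).

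Gal was 85.7 CPM in the NTS of WKY rat 2 of 8 wk (others 113 to 120.3) and 11.5 CPM in the RVLM of the same rat (others 1.69 to 3.53), and 188 CPM in the CVLM of SHR 2 of 24 wk (others 108 to 137.9). Galr1 was the highest of its group in SHR 2 of 16 wk in 2 regions, with 10.999 CPM in the CVLM (others 3.77 to 5.44) and 5.45 CPM in the RVLM (others 1.71 to 2.598). The summed Npy count in the RVLM was 32.1 CPM in SHR 2 of 8 wk (others 6.96 to 10.2) and 40.4 CPM in SHR 1 of 24 wk (others 7.17 to 13.5).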

How the results depend on the processing

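Of the counts and of the members' values averaged over ages, with age, between regions and for Npy2r in the CVLM at 8 wk, recomputed under the alternatives other than leaving out rats, 403 kept their direction and their side of the threshold or stayed within 1.5 times a count, 25 lost the call, 1 gained it (Npy1r in the RVLM, DESeq2), 6 counts moved further and 4 turned sign. With libraries of number 1 alone, the members called were 0 in place of 1 by age, 0 in place of 2 averaged over ages and 0 in place of 7 with age; with the number as a term the last was 0, and with no filter on low values 4. With each age fitted alone, 2 were called by age (Npy2r in the CVLM at 8 wk and Gal in the RVLM at 10 wk). Leaving out 1 rat in turn gave 1 to 2 members called by age, 2 to 4 averaged over ages, 0 to 0 for a strain difference that varies with age and 3 to 8 with age; the 4 averaged over ages came without WKY rat 2 of 8 wk. The 3 with age came without WKY rat 3 of 16 wk. Of the 7 age changes, Galr1 in SHRs and Npy5r lost the call in most of these fits, and Npy1r in the CVLM of WKY rats kept it in all 46 (largest adjusted p = 0.00573). Leaving out 1 replicate number in turn gave 15 to 16 called between regions and 1 to 2 for a strain difference that varies with region, where Npy2r in the NTS against the CVLM was -0.69 (adjusted p = 0.112) without replicate number 2. The largest adjusted p without 1 rat was 0.00249 for Npy2r in the CVLM at 8 wk, 0.00300 averaged over ages in the CVLM and 0.0218 in the RVLM. Small log2 fold changes averaged over ages turned sign: Npy in the NTS was 0.25 with libraries of number 1 alone and -0.32 to 0.27 without 1 rat, and without 1 rat Npy5r in the NTS was -0.037 to 0.048, Gal in the NTS -0.0043 to 0.12, Galr1 in the NTS -0.046 to 0.029 and the summed Npy count in the CVLM -0.11 to 0.035. Without 1 replicate number, the NTS against the CVLM was -0.65 to 0.11 for Npy and -0.13 to 0.33 for Gal. The strain difference in the NTS against the CVLM was then -0.42 to 1.05 for Npy, -0.26 to 0.014 for Npy1r and -0.17 to 0.029 for Npy5r; Npy5r was -0.16 to 0.022 in the NTS against the RVLM and -0.0072 to 0.10 in the CVLM against the RVLM, and Galr1 -0.44 to 0.20 there. The causes were not tested.

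Same-numbered rats of both strains correlated above 0.1 in their deviations from the group means in 12 of 18 pairs in the NTS, 13 of 18 in the CVLM and 7 of 18 in the RVLM, against 19, 25 and 27 of 81 pairs of unlike number. The median r in the same order of regions was 0.22, 0.18 and 0.07 for same-numbered pairs and -0.04, -0.04 and -0.01 for the others. Rats of 1 replicate number may thus share variation that the main fits do not model. The labels give the number no meaning, and it entered as a block only in an alternative. With the replicate block, the members called stayed at 1 by age and 2 averaged over ages, while Npy5r in the NTS was -0.019, Galr1 in the NTS 0.042 and the summed Npy count in the CVLM 0.024. In the RVLM, Npy2r is limited by depth, with 1 to 38 reads a library.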
